A study of Homo sapiens with 4 samples.

Results

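The genes described here are 43 genes of protein folding, translocation and stress signalling in the endoplasmic reticulum (ER), chosen by gene name from the 60606 genes of the count table. They comprised 8 ER chaperones and their partners, 5 enzymes of oxidative folding, 7 sensors and effectors of the unfolded protein response (UPR), 10 genes of ER-associated degradation, 5 translocon genes, 4 subunits of the TRAP complex and 4 of the signal peptidase. All 43 were in the table, and all 43 passed the filter on low counts that left 19349 genes for the test. RNA was sequenced from DaroR cells, a resistant derivative of the LNCaP prostate cancer line that was selected with the androgen receptor antagonist darolutamide and kept in it. The cells were transfected with a control siRNA (siControl, 2 libraries) or with a pool of siRNAs against the long noncoding RNA LOC730101 (siLOC730101, 2 libraries). Both groups were the same resistant line, so no parental LNCaP cells and no drug-free cells enter this comparison. The sources used here do not say whether the 2 libraries of a group came from separate cultures, and p-values then measure only the spread between these libraries.

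About the ER itself, secreted and membrane proteins enter it through the SEC61 channel, lose their signal peptide to the signal peptidase, and are folded by chaperones such as BiP and by protein disulfide isomerases, while proteins that fail to fold are returned to the cytosol for degradation. When folding falls behind, the sensors IRE1, PERK and ATF6 start the UPR: IRE1 splices the mRNA of XBP1, PERK slows translation and favours ATF4 and its target DDIT3 (CHOP), and ATF6 is cut to release a transcription factor. Luminal prostate cells are secretory cells that export large amounts of kallikreins, and androgen receptor signalling is known to act on the IRE1 branch in prostate cancer cells.

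The ATF6 and XBP1 arms act through short promoter elements, which are printed here as sequence features of the members. Which members respond to the UPR in these cells was not measured. The ER stress response element (ERSE) is CCAAT, 9 bases and CCACG, and ERSE-II is ATTGG, 1 base and CCACG. Both were searched on both strands of the RefSeq promoters (GRCh38.p14), which run from 250 bases before to 50 bases after each gene start. Promoters were present for 39 of the 43 genes; PDIA3, DERL1, DERL3 and SPCS1 were not matched. ERSE was found in 7 of these 39 genes (17.9%), HSPA5, HSP90B1, CALR, CANX, PDIA6, CRELD2 and XBP1, against 25 of all 27305 genes (0.0916%) and 0.0769% of all 35116 promoters. ERSE-II was found in 3 genes, SDF2L1, HYOU1 and HERPUD1, against 19 of all genes (0.0696%) and 0.0541% of promoters. A match is a description of the letters in this window and not a measured binding site. In the lines below, each sequence reads 5′ to 3′ on the strand of its gene, and capitals mark the whole element, including the bases between its parts. Flanking bases are in lower case and stop where an exon of the count table begins.
HSPA5, chr9:125241383-125241429, minus strand: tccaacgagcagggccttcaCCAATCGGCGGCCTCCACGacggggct
CALR, chr19:12938364-12938422, plus strand: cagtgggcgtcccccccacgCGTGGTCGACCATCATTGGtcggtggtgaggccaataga
PDIA6, chr2:10812840-10812891, minus strand: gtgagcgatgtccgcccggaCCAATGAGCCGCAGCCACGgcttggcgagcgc
CRELD2, chr22:49918534-49918592, plus strand: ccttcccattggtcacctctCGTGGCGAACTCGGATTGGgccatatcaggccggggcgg
XBP1, chr22:28800598-28800641, minus strand: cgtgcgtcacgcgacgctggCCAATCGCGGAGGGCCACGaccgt
HSP90B1, first of a pair, chr12:103930216-103930234, plus strand: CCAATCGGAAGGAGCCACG
HSP90B1, second of the pair, chr12:103930321-103930339, plus strand: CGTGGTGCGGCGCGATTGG

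The HSPA5 element lay 66 to 48 bases before the gene start and read in the direction of the gene, as did the elements of PDIA6 and XBP1. In CALR, CRELD2 and the second HSP90B1 element, it read in the opposite direction, so that CGTGG came first. HSP90B1 is printed without flanks because both its elements overlapped an exon of a longer transcript in the count table. The CANX element is not printed, and all 19 of its bases lay in an exon of the count table. Depending on the listed start, it lay 189 to 171 or 151 to 133 bases before the start, or ran across it. The ERSE-II elements are shorter, and HYOU1 held a pair of them.
SDF2L1, chr22:21642094-21642144, plus strand: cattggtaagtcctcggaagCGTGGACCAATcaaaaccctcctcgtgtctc
HYOU1, farther from the start, chr11:119057360-119057410, minus strand: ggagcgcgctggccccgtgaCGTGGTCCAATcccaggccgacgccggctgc
HYOU1, nearer to the start, chr11:119057254-119057304, minus strand: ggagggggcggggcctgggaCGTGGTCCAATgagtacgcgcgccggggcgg
HERPUD1, chr16:56932005-56932055, plus strand: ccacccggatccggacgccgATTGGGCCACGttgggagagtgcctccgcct

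The core shared by XBP1 and ATF6 sites, TGACGTGG, was found in 4 of the 39 genes (10.3%), HYOU1, SEC62, SSR3 and SSR4, against 253 of all genes (0.927%) and 0.729% of promoters. In HYOU1, it overlapped the ERSE-II element farther from the start. The SSR3 match is shown because SSR3 had the lowest fold change of the 43 genes; it read in the opposite direction, 41 to 34 bases before one of 3 listed starts.
SSR3, chr3:156554139-156554186, minus strand: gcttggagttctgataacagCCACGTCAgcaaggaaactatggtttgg

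The composite element of ATF4 and C/EBP factors (TGATG, 1 base, AAT) was in none of the 39 promoters, against 333 of all genes (1.22%) and 0.991% of promoters. This includes the promoters of DDIT3 and PPP1R15A, and it says only that these letters are absent from this window.

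The libraries held 53368158 and 46271037 counts in the siControl group and 40885634 and 39213498 in the siLOC730101 group. The targeted RNA, listed in the table as ENSG00000216775 on chromosome 6 from 52664366 to 52669155 (GRCh38), had 2560 and 2370 counts against 633 and 680, a log2 fold change of -1.56 ± 0.12 (SE, edgeR adjusted p = 4.34e-06). Log2 fold changes are siLOC730101 against siControl throughout, and the value after ± is the SE of the fit. All 9 luminal prostate markers passed the filter and summed to between 6843 and 7586 CPM, scaled by library size alone. Of 10 markers of other cell types, PTPRC, CD3E, COL1A2, KRT5 and TP63 were at 0 in every library. COL1A1 had 797 and 516 counts after siControl and 451 and 462 after siLOC730101, and VWF had 359 and 442 against 238 and 264. Both passed the filter, as did ACTA2 at 8 to 32 counts. The 10 summed to between 17.3 and 21.9 CPM by library size alone. One feature of the whole data set touches the results below: values of short mRNAs were highest in the siLOC730101 replicate 2 library. The 2698 tested genes with the shortest canonical mRNAs, 207 to 1831 bases, were read on the log2 scale relative to each gene's mean. Their median was 0.143 in that library, against -0.0783 and -0.0581 in the siControl libraries and -0.00588 in siLOC730101 replicate 1. Both siLOC730101 libraries thus lay above both controls. The length trend and the siRNA cannot be told apart here, and removing the trend may also remove a difference between the groups.

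The 43 ER genes were close to their control levels after siLOC730101. The question was whether depletion of LOC730101 moved the folding and secretion machinery of these cells. At an adjusted p under 0.05, edgeR called no member higher and no member lower, where over all genes 0.212% were called higher and 0.0724% lower. At shares this low, a list of 43 genes would rarely hold a call, so the absence of calls does not set these genes apart. The smallest adjusted p among the members was 0.105 in the edgeR test, for SEC61G. At an unadjusted p under 0.05 in edgeR, 2 members were higher (SEC61G and SPCS1) and 2 were lower (SSR3 and SEL1L), while 6.43% of all tested genes were higher and 4.39% lower, shares that would come to about the same counts in a list of this length. DESeq2 called SEC61G higher and SSR3 lower, with adjusted p-values of 0.0147 and 0.0221, against 2.36% and 0.744% of the 10346 genes for which it gave an adjusted p. It gave none for PPP1R15A and DERL3.

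The size of the differences was small as well, although bulk RNA cannot tell less RNA per cell from fewer cells that express a gene. The median log2 fold change of the members was -0.036 against -0.0021 over all tested genes, and the median distance from 0 was 0.0907 against 0.167. The genes behind these 2 distances were not matched for depth of counting. The smaller distance therefore does not show that the members moved less than other genes of their level. In 40 of the 43 genes, the 95% interval of the fold change lay within 1.5-fold in both directions, and in 20 it lay within 1.2-fold. The exceptions at 1.5-fold were SEC61G, the sparsely counted PPP1R15A and DERL3, whose 18 to 30 counts were too few to show a difference of that size. The members were otherwise deeply counted: 39 had more than 1000 counts in every library, the highest count was 80778, and together they took 1.19% to 1.28% of each library.

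**Figure D1:**
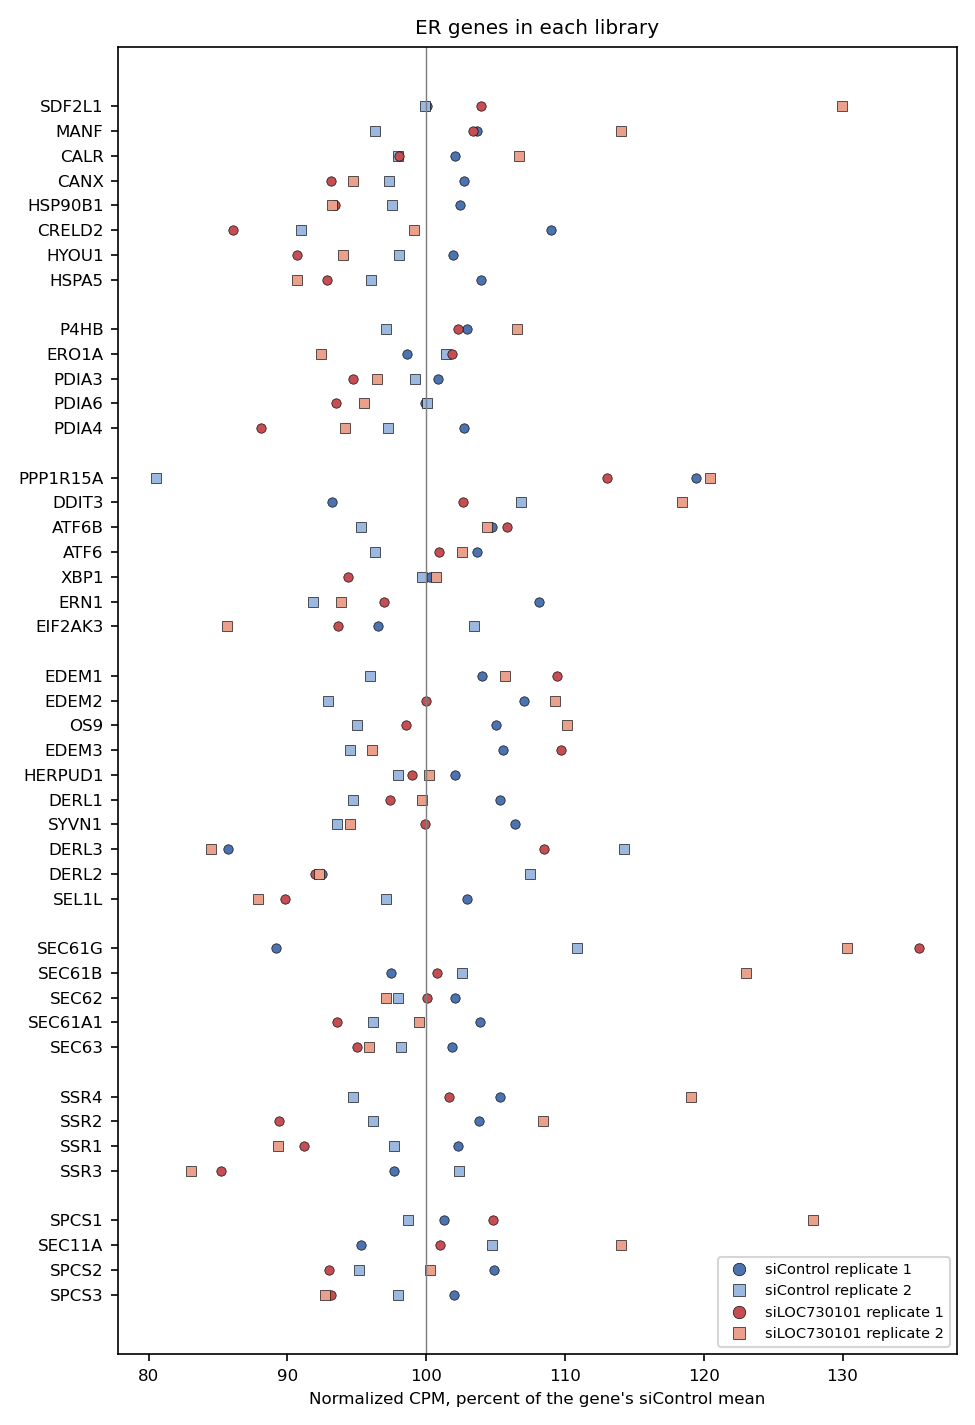
Normalized CPM of each of the 43 genes in each of the 4 libraries, as percent of the gene's siControl mean (horizontal axis), with genes grouped by role from top to bottom as in the text. Circles are replicate 1 and squares replicate 2, blue is siControl and red is siLOC730101. SEC61G lies farthest to the right in both siLOC730101 libraries, SSR3 is among those farthest to the left, and for most genes the red and blue points lie close together.

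Of the 43 genes, 17 had a log2 fold change above 0 (39.5%, against 49.6% of all tested genes) and 26 below. The siLOC730101 libraries both lay below both siControl libraries for 14 members (32.6%, against 20.5% of all tested genes) and both above for 4 members (9.3%, against 21.3%). This lean depended on single libraries. The median of the members relative to each gene's mean was 0.042 in siControl replicate 1, -0.030 in siControl replicate 2, -0.044 in siLOC730101 replicate 1 and 0.0076 in siLOC730101 replicate 2. Without siControl replicate 1, 26 of the 43 genes lay above 0 and their median was 0.026, and without siLOC730101 replicate 1, 22 of the 43 lay above 0 and the median was 0.0013. The exact permutation test of a single value over 2 against 2 libraries cannot give a two-sided p below 0.333.

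**Figure D2:**
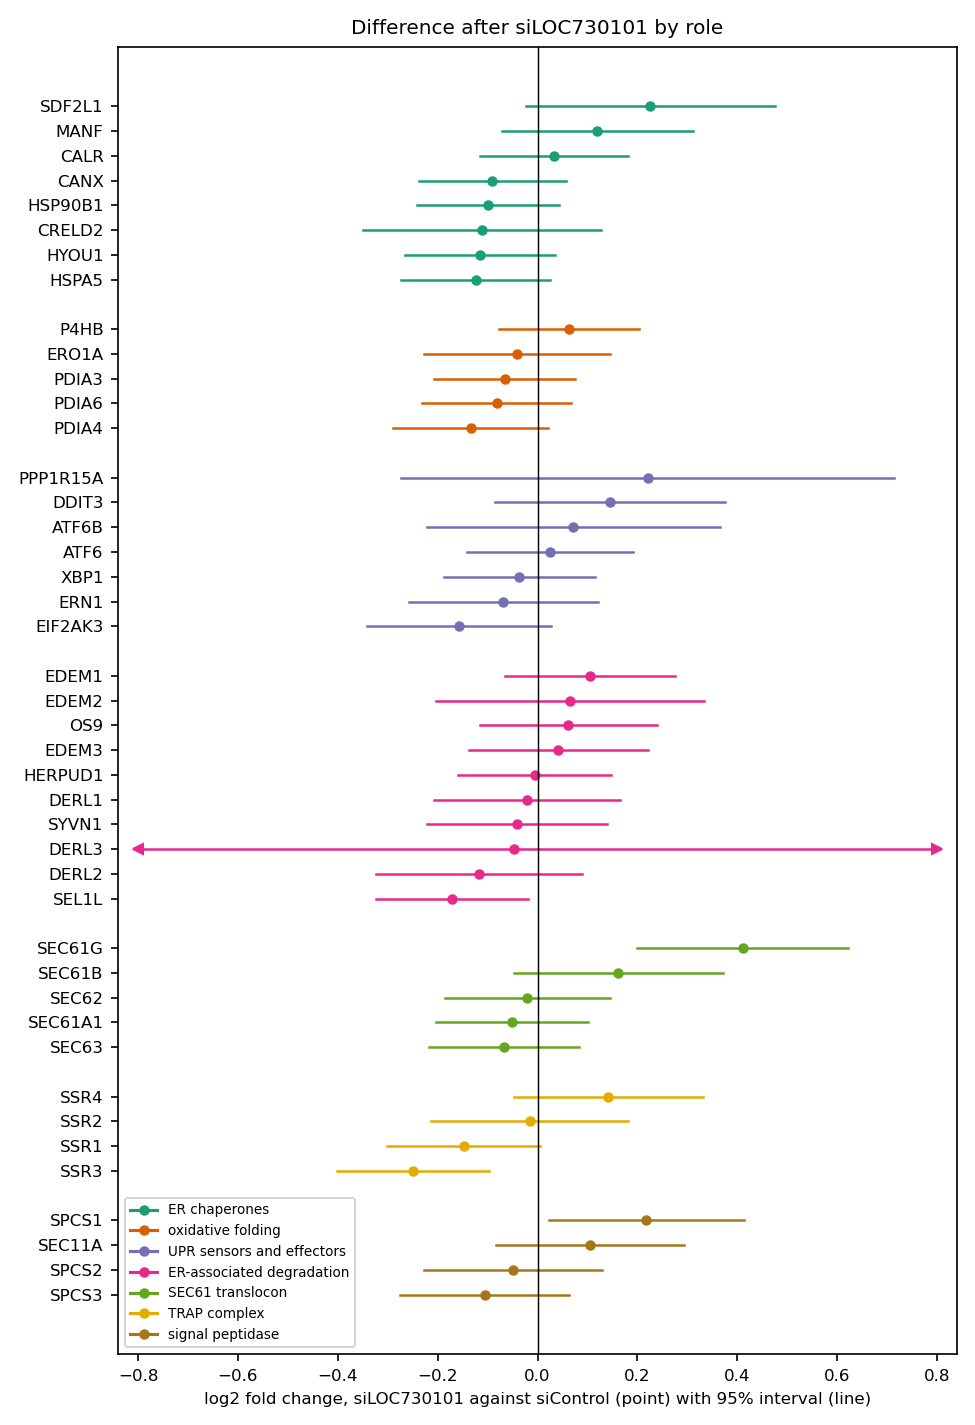
Log2 fold change of siLOC730101 against siControl for the 43 genes (points) with 95% intervals from the edgeR fit (lines), colored by role; arrowheads mark the DERL3 interval, which runs past the axis. The intervals of SEC61G and SPCS1 lie above 0 and those of SSR3 and SEL1L below 0, and the other intervals cross it.

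None of the 3 UPR sensors passed the test. ERN1, which encodes IRE1α (chromosome 17, 64039080 to 64130819), had 7445 and 5476 counts after siControl and 5072 and 4539 after siLOC730101, or 138, 117, 123 and 119.6 normalized CPM. Its siLOC730101 values lay inside the siControl range, with a log2 fold change of -0.068 ± 0.089 (SE). EIF2AK3, which encodes the kinase PERK (chromosome 2, 88556741 to 88691518), had 4703 and 4363 counts against 3467 and 2931, or 87.0 and 93.2 against 84.4 and 77.2 CPM. Both siLOC730101 libraries lay below both controls, with a log2 fold change of -0.16 ± 0.087 (SE, edgeR adjusted p = 0.549). ATF6, the sensor that becomes a transcription factor (chromosome 1, 161766298 to 161977574), had 7966 and 6406 counts against 5892 and 5534, or 147 and 137 against 143 and 146 CPM. Its libraries overlapped and its log2 fold change was 0.025 ± 0.078 (SE), a sign that turned to -0.0064 with upper-quartile scaling and to -0.013 with library size alone. Its relative ATF6B had a log2 fold change of 0.071 ± 0.14.

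The readouts of the sensors were near control levels too. HSPA5, which encodes the chaperone BiP and is a target of ATF6 (chromosome 9, 125234853 to 125241382), had 40877 and 32694 counts after siControl and 27753 and 25041 after siLOC730101, or 756, 698.5, 675.5 and 659.6 CPM. The groups did not overlap and siLOC730101 was the lower one, but the gap between the nearest libraries was smaller than that between the siControl replicates, and the log2 fold change was -0.12 ± 0.070 (SE, 95% interval -0.27 to 0.026, edgeR adjusted p = 0.563). XBP1, whose mRNA is spliced by IRE1 (chromosome 22, 28794555 to 28800597), had 23613 and 20335 counts against 16883 and 16657, or 437 and 434.5 against 411 and 439 CPM. Replicate 2 of siLOC730101 was the highest of the 4 libraries for XBP1 and replicate 1 the lowest, and the log2 fold change was -0.036 ± 0.071 (95% interval -0.19 to 0.12). A gene count does not separate spliced from unspliced XBP1 mRNA.

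DDIT3, which encodes the stress-induced transcription factor CHOP downstream of PERK and ATF4 (chromosome 12, 57516588 to 57521737), had 2172 and 2155 counts against 1818 and 1938, or 40.2 and 46.0 against 44.2 and 51.0 CPM. Its groups overlapped, and the log2 fold change was 0.14 ± 0.11 (SE, edgeR adjusted p = 0.693). In the table, 39.6% of the exon bases of DDIT3 were shared with MARS1, MBD6 or another gene, so that part of its reads could not be assigned with certainty. PPP1R15A, which encodes GADD34, the phosphatase subunit that ends PERK signalling (chromosome 19, 48872421 to 48876058), had 370 and 216 counts against 266 and 262, or 6.84 and 4.61 against 6.47 and 6.90 CPM. The siControl replicates were far apart, and the log2 fold change of 0.22 had a 95% interval from -0.27 to 0.71. Without siControl replicate 2 it was -0.031, and without siControl replicate 1 it was 0.54. As a group, the 7 UPR genes had a median log2 fold change of 0.025 (-0.031 without siControl replicate 2, -0.029 with the length trend removed), with 4 above 0 and 3 below, and groups that did not overlap only for EIF2AK3.

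Among the ER chaperones, 5 of 8 genes lay below 0 and the median log2 fold change was -0.095, which was -0.012 without siControl replicate 1 and -0.037 without siLOC730101 replicate 1. HSP90B1, which encodes the ER paralogue of HSP90 named GRP94, was at 957 ± 33 CPM in siControl and 893 ± 1.5 in siLOC730101 (SD, n = 2), a log2 fold change of -0.10 ± 0.067. The lectin chaperone gene CANX was similar, with -0.091 ± 0.069, whereas its soluble counterpart CALR was at 978 ± 29 and 1001 ± 60 CPM and had 0.033 ± 0.070, or -0.0053 when scaled by library size alone. HYOU1, the exchange factor of BiP, had -0.11 ± 0.071, and CRELD2, a UPR-induced gene of disulfide exchange, had -0.11 ± 0.11. For HSPA5, HSP90B1, CANX and HYOU1, both siLOC730101 libraries lay below both controls (50% of the chaperones, against 20.5% of all tested genes).

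SDF2L1 and MANF lay above 0. SDF2L1, a cofactor of BiP and the ERdj3 cochaperone (chromosome 22, 21642302 to 21644299), had 1824 and 1577 counts after siControl and 1440 and 1664 after siLOC730101. These came to 33.7 in each siControl library and to 35.0 and 43.8 CPM in the siLOC730101 libraries, so the difference came mainly from siLOC730101 replicate 2. The log2 fold change was 0.23 ± 0.12 (SE, edgeR adjusted p = 0.522), and it went to 0.053 when siLOC730101 replicate 2 was left out and to 0.39 when replicate 1 was. MANF, a secreted stress-induced protein, had 0.12 ± 0.090 with overlapping groups.

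The disulfide isomerases lay slightly below control, with P4HB as the exception. P4HB, which encodes PDI itself and was the most highly counted of the 43 genes, was at 1452 ± 60 CPM in siControl and 1516 ± 43 in siLOC730101 (SD, n = 2), a log2 fold change of 0.062 ± 0.066. Its relatives PDIA3 (ERp57, the partner of the lectin chaperones), PDIA4 (ERp72) and PDIA6 (P5) had -0.065 ± 0.066, -0.13 ± 0.073 and -0.082 ± 0.070. For all of these relatives the siLOC730101 values were the lower ones, without overlap (60% of the group, against 20.5% of all tested genes). The oxidase gene ERO1A, which reoxidizes PDI, had -0.041 ± 0.087. No gene of this group passed the test, the median was -0.065, and all 5 intervals lay within 1.5-fold. In the count table, 25.2% of the exon bases of PDIA6 were shared with ATP6V1C2.

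In ER-associated degradation, 4 of 10 genes lay above 0, the median log2 fold change was -0.014 (0.057 without siControl replicate 1), and SEL1L was the gene farthest from 0. SEL1L, the adaptor of the ubiquitin ligase HRD1 (chromosome 14, 81471547 to 81533853), had 22373 and 18273 counts after siControl and 14842 and 13415 after siLOC730101, or 414 and 390.4 against 361 and 353 CPM. Both siLOC730101 libraries lay below both controls by more than the siControl replicates differed, and the log2 fold change was -0.17 ± 0.072 (SE, 95% interval -0.32 to -0.018). It did not pass after adjustment (edgeR adjusted p = 0.389). HRD1 itself, encoded by SYVN1, had -0.041 ± 0.085, and HERPUD1, which organizes the HRD1 complex, had -0.0060 ± 0.072.

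The retrotranslocation factors DERL1 and DERL2 had -0.021 ± 0.087 and -0.12 ± 0.097. Their paralogue DERL3 had 26, 30, 25 and 18 counts, and 77.0% of its exon bases were shared with SMARCB1 on the opposite strand, so its level is uncertain. Among the mannosidase-like proteins that mark misfolded glycoproteins, EDEM1 had 0.11 ± 0.080 with both siLOC730101 libraries above both controls, EDEM2 had 0.065 ± 0.13 and EDEM3 had 0.042 ± 0.084. The lectin gene OS9, which hands such glycoproteins to HRD1, had 0.061 ± 0.083.

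The log2 fold changes of the 5 SEC61 translocon genes ran from -0.067 to 0.41, and SEC61G had the highest. Differences between these genes were not tested. SEC61G encodes the smallest subunit of the channel, the γ subunit (chromosome 7, 54752250 to 54759974, minus strand). It had 3885 and 4181 counts after siControl and 4487 and 3988 after siLOC730101, or 71.9, 89.3, 109 and 105 CPM. Both siLOC730101 libraries lay above both controls, although the siControl replicates were farther from each other than siControl replicate 2 was from the nearer siLOC730101 library. The log2 fold change was 0.41 ± 0.099 (SE, 95% interval 0.20 to 0.62), or 33.0% above control. It missed the threshold in the edgeR test (adjusted p = 0.105) and passed in DESeq2 (adjusted p = 0.0147).

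The size of the SEC61G difference changed with the libraries kept. Without siControl replicate 1, the library with its lowest level, the log2 fold change was 0.26. With any other library left out it lay between 0.39 and 0.58. Without siLOC730101 replicate 2, the library with the highest values of short mRNAs, it was 0.44. At 425 bases, SEC61G has the shortest canonical mRNA of the 43 genes, and in a fit to the 13487 genes with a canonical mRNA length, with the length trend removed from every library, its log2 fold change was 0.10 (edgeR adjusted p = 0.755).

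The other subunits of the channel were nearer to control. SEC61A1, which encodes the pore-forming α subunit, was at 815 ± 45 CPM in siControl and 786 ± 34 in siLOC730101 (SD, n = 2), a log2 fold change of -0.051 ± 0.071. SEC61B, which encodes the β subunit, had 0.16 ± 0.098, which was 0.0083 without siLOC730101 replicate 2 and -0.11 with the length trend removed. SEC62 and SEC63, which encode the partners of the channel in posttranslational import and BiP recruitment, had -0.020 ± 0.078 and -0.067 ± 0.071.

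In the TRAP complex, which sits beside the translocon and assists the insertion of some signal sequences, SSR3 and SSR4 lay on opposite sides of 0. SSR3, which encodes the γ subunit (chromosome 3, 156539553 to 156555149, minus strand), had 18894 and 17140 counts after siControl and 12533 and 11284 after siLOC730101, or 349.5, 366, 305 and 297 CPM. Both siLOC730101 libraries lay below both controls by more than the replicates of either group differed. The log2 fold change was -0.25 ± 0.072 (SE, 95% interval -0.40 to -0.096), a difference that missed the threshold in edgeR (adjusted p = 0.169) and passed in DESeq2 (adjusted p = 0.0221). It ranged from -0.28 to -0.21 with 1 library left out and was -0.24 with the length trend removed (edgeR adjusted p = 0.0666). In the table, 20.8% of its exon bases were shared with ENSG00000287916 on the opposite strand.

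The α subunit gene SSR1 had -0.15 ± 0.072, with both siLOC730101 libraries below both controls. SSR2, which encodes the β subunit, had -0.016 ± 0.093, and SSR4, which encodes the δ subunit, had 0.14 ± 0.089, or 0.020 without siLOC730101 replicate 2 and -0.12 with the length trend removed. The pseudogene SSR4P1 held up to 5.79% as many counts as SSR4 in a library, so reads of SSR4 may be split between them.

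The signal peptidase genes had no common direction, with a median of 0.027 and 2 genes on either side of 0. Leaving out siLOC730101 replicate 1 brought the median to 0.11, and leaving out replicate 2 brought it to -0.047. SPCS1, an accessory subunit, was at 135 ± 2.4 CPM in siControl and 157 ± 22 in siLOC730101 (SD, n = 2), a log2 fold change of 0.22 ± 0.092 with 172 CPM in siLOC730101 replicate 2 and 141 in replicate 1. It had an unadjusted p of 0.0316 and an adjusted p of 0.395 in edgeR, and leaving out siLOC730101 replicate 2 brought the log2 fold change to 0.065. In the table, 56.6% of its exon bases were shared with GLT8D1 and NEK4. The catalytic subunit gene SEC11A had 0.10 ± 0.088, and the accessory subunit genes SPCS2 and SPCS3 had -0.049 ± 0.084 and -0.11 ± 0.080.

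Ratios of counts within a complex do not depend on how libraries are scaled. The ratio of SEC61G to SEC61A1 counts was 0.0849 and 0.114 in the siControl libraries and 0.143 and 0.130 in the siLOC730101 libraries, a 1.37-fold difference of the means. SSR4 to SSR3 was 0.541 and 0.465 against 0.598 and 0.720, a 1.31-fold difference. In both, the siLOC730101 libraries lay above both controls. The ratio of SEC61B to SEC61A1 was 0.0883 and 0.100 against 0.101 and 0.117, and that of SPCS1 to SPCS3 was 1.23 and 1.25 against 1.39 and 1.70, so the groups did not overlap there either. In each of the 4 pairs the first gene was also the one with the higher log2 fold change. The direction of these ratios therefore follows from the choice of pairs and adds no separate result. No other pairs were compared. The first gene of each pair also has the shorter mRNA. When the length trend was removed from every library, the difference of the fitted log2 fold changes within a pair went from 0.46 to 0.15 for SEC61G and SEC61A1 and from 0.39 to 0.12 for SSR4 and SSR3. It went from 0.21 to -0.061 for SEC61B and SEC61A1, and it was 0.32 before and 0.31 after for SPCS1 and SPCS3.

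**Figure D3:**
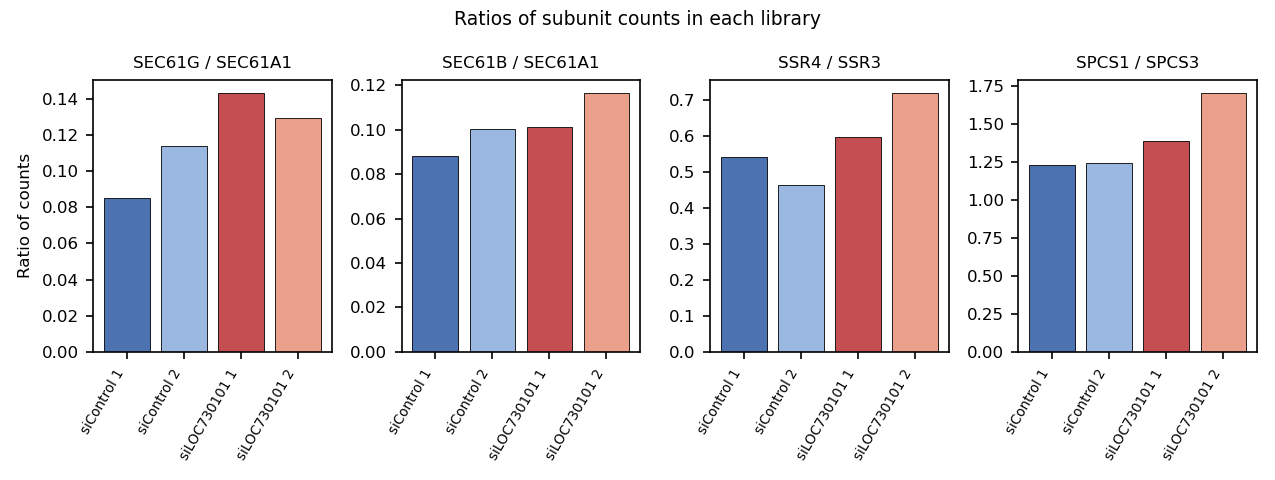
Ratio of the counts of a pair of genes of one complex (vertical axes, no unit, starting at 0) in each of the 4 libraries, 1 bar per library, blue for siControl and red for siLOC730101. In each panel, both siLOC730101 bars stand above both siControl bars, with the largest fold difference for SEC61G over SEC61A1. The first gene of each pair was the one with the higher log2 fold change.

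The fold changes of the members followed the length of their mRNAs, as those of all genes did. The 13487 tested genes with a canonical protein-coding transcript were divided by mRNA length into 5 classes of about equal size. Their median log2 fold changes were 0.138 in the shortest class, 0.054, 0.0025 and -0.022 in the next ones, and -0.046 in the longest. The members in the same classes had medians of 0.131, 0.047, -0.045, -0.115 and -0.044. Of the 10 members in the shortest class 7 lay above 0, and of the 7 members in the class next to the longest none did. Across the 43 genes, which share the same 4 libraries and are not independent, Pearson's r of log2 fold change with log2 mRNA length was -0.636 and Spearman's rho was -0.577, while rho over all genes was -0.287. With the length trend removed from every library, no member was called, 11 of the 43 lay above 0 and their median was -0.057.

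**Figure D4:**
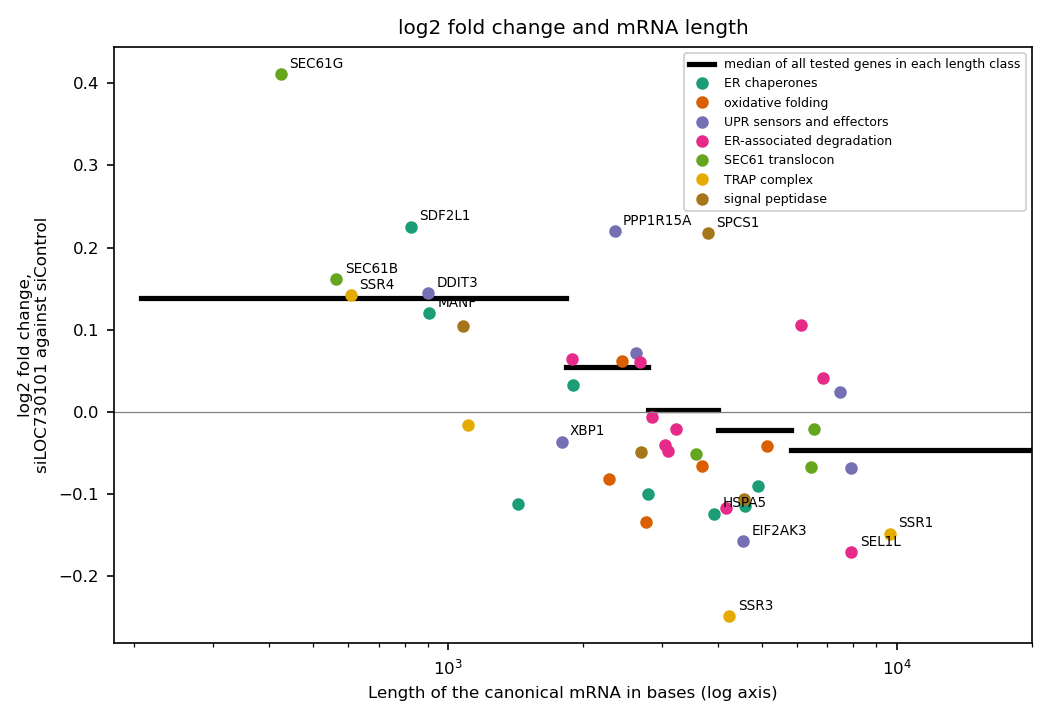
Log2 fold change of the 43 genes (points, colored by role) against the length of the canonical mRNA (log axis, in bases); black bars are the medians of all tested genes in each of the 5 length classes, drawn over the range of that class up to the edge of the plot. The bars step down from 0.138 to -0.046, SEC61G lies above the bar of its class, and SSR3 lies below the bar of its own. SEC61G has the shortest mRNA of the 43 genes, and its log2 fold change was 0.10 with the length trend removed.

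None of the 10 members with an ERSE or ERSE-II in their promoter passed the edgeR test. These 10 genes had a median log2 fold change of -0.086 and ranged from -0.12 to 0.23, with 8 below 0 and 2 above. For 5 of the 10 (50%, against 20.5% of all tested genes), both siLOC730101 libraries lay below both controls, and for 1 (10%, against 21.3%) both lay above. The 29 members with a promoter and neither element had a median of -0.016. Of these 29, siLOC730101 was lower without overlap for 8 (27.6%) and higher without overlap for 2 (6.9%). A lean to lower values was thus also present in members without either element. Without siControl replicate 1, the median of all members went from -0.036 to 0.026. Whether the lean of the 10 carriers is linked to the elements was not tested. Over the whole table, 44 genes carried either element, 31 of them were tested, 0 were called, and their median was -0.052. Of these 31, siLOC730101 was lower without overlap for 12 (38.7%, against 20.5% of all tested genes) and higher without overlap for 5 (16.1%, against 21.3%). The 31 include the 10 members. The 21 other genes among them had a median of -0.022, with 10 above 0 and 11 below. For these 21, siLOC730101 was lower without overlap for 7 (33.3%) and higher for 4 (19%).

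The levels of the members spanned more than 3 orders of magnitude when expressed per length. On the scale of normalized CPM per kilobase of exon in the siControl libraries, CALR was highest at 349 ± 10 (SD, n = 2), followed by XBP1 at 144 ± 0.55, P4HB at 130 ± 5.4, PDIA4 at 127 ± 4.9 and HSPA5 at 111 ± 6.2. On this scale, XBP1 and P4HB differed by more than the spread between replicates, while P4HB and PDIA4 did not. Per kilobase of the canonical mRNA, the order of XBP1 and P4HB was reversed, at 243 and 596. The sensors were much lower, with ATF6 at 9.96 ± 0.52, ERN1 at 6.65 ± 0.77, ATF6B at 4.43 ± 0.30 and EIF2AK3 at 4.35 ± 0.21, and the last 2 could not be ordered. This order depended on the length used, since per kilobase of the canonical mRNA EIF2AK3 was at 19.9, ATF6 at 19.0, ERN1 at 16.1 and ATF6B at 6.12. DDIT3 was at 33.0 ± 3.2, PPP1R15A at 1.87 ± 0.51 and DERL3 was lowest at 0.148 ± 0.030. The exon length of the table joins all transcripts of a gene, and per kilobase of the canonical mRNA, an alternative added after seeing the data, P4HB at 596 came before CALR at 515 and HSP90B1 stood at 344 in place of 73.1.

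**Figure D5:**
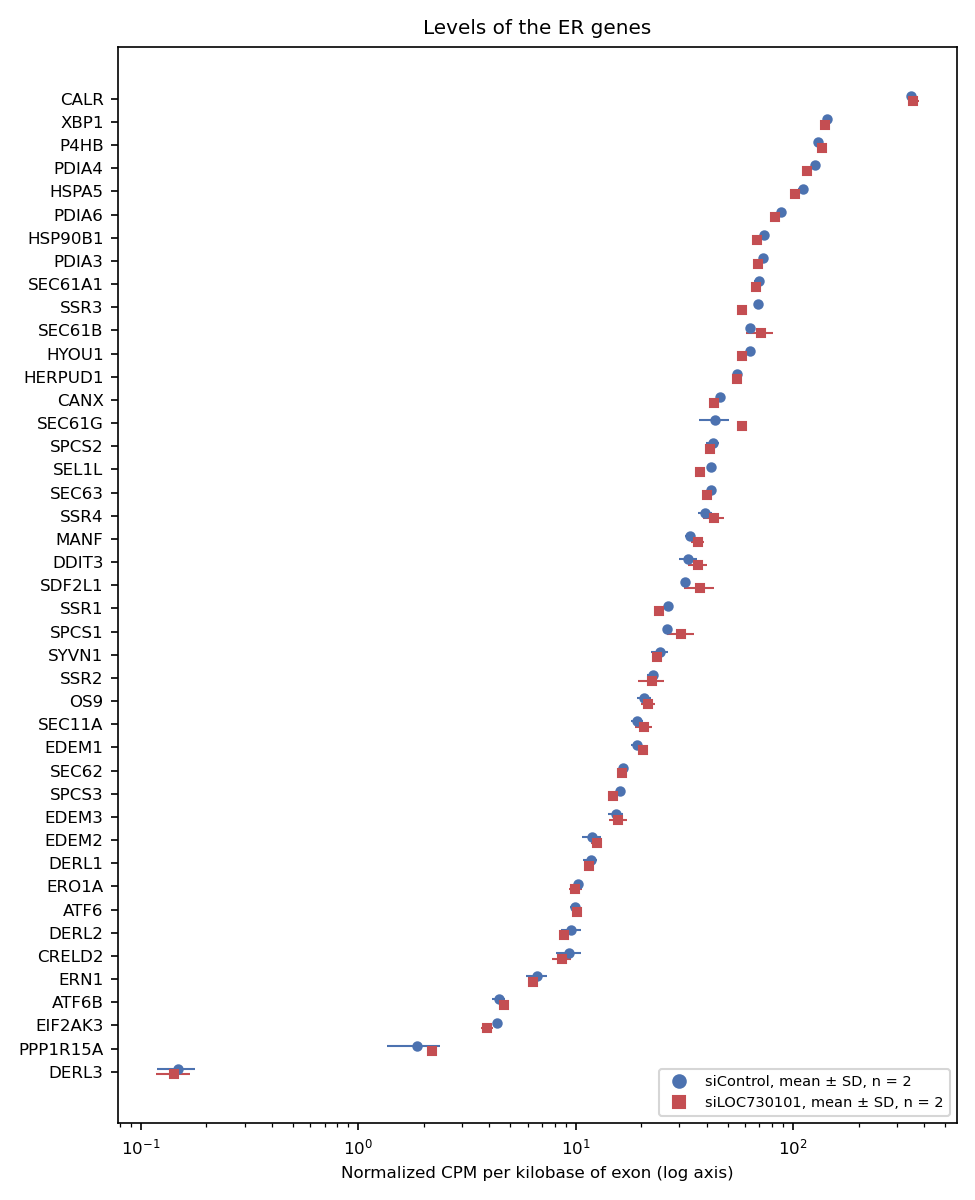
Normalized CPM per kilobase of exon (log axis) for the 43 genes, ordered by the siControl mean, as mean ± SD of 2 libraries for siControl (blue circles) and siLOC730101 (red squares). Levels run from 0.148 for DERL3 to 349 for CALR, and the 2 groups lie close together for nearly every gene.

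A further 119 genes of the same pathways, listed as other folding enzymes and cochaperones, the signal recognition particle and its receptor, other translocation factors, the oligosaccharyltransferase, the ER membrane protein complex, other degradation factors and other UPR or integrated stress response genes, were read in the same way. Of the 118 that were tested (FKBP2 was not), edgeR called none higher and 1 lower. Of these, 67 lay above 0 (56.8%, against 49.6% of all tested genes), with a median of 0.012. The gene called lower was DNAJC3, which encodes p58IPK, a cochaperone of BiP and inhibitor of PERK (chromosome 13, 95677139 to 95794988). It had 9915 and 7462 counts after siControl and 4348 and 4283 after siLOC730101, or 183, 159, 106 and 113 CPM. Both siLOC730101 libraries lay far below both controls, and the level fell by 0.65 ± 0.086 on the log2 scale (SE, edgeR adjusted p = 0.00266), that is, it fell by 36.2%. With 1 library left out the log2 fold change ranged from -0.74 to -0.54, and it passed each time, with a highest adjusted p of 0.00475 in edgeR.

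DNAJC3 was thus lower while BiP (HSPA5), its partner, and PERK (EIF2AK3), the kinase it inhibits, did not pass the test. The highest fold change of the 118 was that of TMEM258, a small subunit of the oligosaccharyltransferase, with 0.36 ± 0.10 (SE, edgeR adjusted p = 0.153), or 0.097 with the length trend removed. DESeq2 called 3 of the 118 genes higher, SRP14 (0.30), SEC11C (0.36) and DAD1 (0.29), and 2 lower, DNAJC3 and TXNIP (-0.26), where the values in parentheses are log2 fold changes in edgeR. Over all genes, DESeq2 called 2.36% higher and 0.744% lower. SRP14, SEC11C, DAD1 and TXNIP were named after their values were seen. The list of other UPR and integrated stress response genes, which holds ATF4 and some of its targets, had 15 of 20 genes above 0 (75%). Over all tested genes the share above 0 was 49.6%. The median of this list was 0.077, with no call in edgeR. The list was not matched for mRNA length. Among all genes with mRNAs of 207 to 1831 and of 1832 to 2786 bases, 73.5% and 62.5% lay above 0. The other 6 lists had medians between -0.014 and 0.062.

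The counting used no strand option, so reads from genes that overlap on opposite strands were not told apart. In the table, 29 of the 43 genes shared exon bases with another gene, with a median of 4.62% over the members, and the share was above 10% for DERL3, SPCS1, DDIT3, PDIA6, OS9 and SSR3. HSPA5, XBP1, ATF6, PPP1R15A, SEL1L, SDF2L1 and SEC61B shared none. Pseudogene copies held at most 0.909% as many counts as PDIA3 and 1.82% as many as SPCS2, and SEC61GP1 was at 0.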

How the data were processed

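RNA was measured in 4 poly(A) libraries of DaroR cells, 2 siControl and 2 siLOC730101. After trimming (Trim Galore) and alignment, the authors deposited raw, unnormalized featureCounts 2.0.1 counts per gene. Per the file header, the counts were made on hg38 with gencode 41 and with no paired-end or strand option, whereas the study's methods give STAR and hg19 and the submitters' processing notes give BWA. Of the counts from 1 to 20, 66% to 70.1% were even, so mates may have been counted apart. Depth was 39213498 to 53368158 counts per library.

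The counts were tested with edgeR 4.0.16 under R 4.3.3 (filterByExpr, TMM scaling, quasi-likelihood test with condition as the only term), and p-values were adjusted by Benjamini-Hochberg over all 19349 genes tested. The fit was checked on data with known changes. DESeq2 1.42.0 (Wald test) was the alternative tool. Normalized CPM are mean ± SD of 2 libraries. Lengths of canonical mRNAs came from a GENCODE annotation joined by gene name. ENSG00000216775 was taken as LOC730101 by its position. The members and lists were chosen with earlier results of these data known, so lists were described and not tested. Counts per library are given for members called by either tool, for the 3 sensors, for HSPA5, XBP1 and DDIT3, and for the 3 highest and 3 lowest fold changes. Of the other ER genes, those called and the highest and lowest fold change were named. Protein sequences were not used here. Alternatives were other scalings, filters and quasi-likelihood settings, DESeq2, the replicate number as a block, halved counts, leaving out each library and, added after seeing the data, removal of the trend with mRNA length and levels per canonical mRNA.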

Additional observations from a re-analysis of the deposited data

How the results depend on the processing

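DNAJC3 was called lower in every alternative. Members called higher and lower (0 and 0) became 1 and 1 with DESeq2, and 1 and 0 with a filter of at least 1 count. They became 1 and 0 with halved counts, where 112 of 17031 genes were called higher and 34 lower (0.857% together). With 1 library left out, the log2 fold change ranged from 0.053 to 0.39 for SDF2L1 and from 0.0083 to 0.31 for SEC61B. It ranged from 0.26 to 0.58 for SEC61G, from 0.020 to 0.26 for SSR4 and from 0.065 to 0.36 for SPCS1. The replicate numbers did not pair the libraries (correlation of same-numbered deviations 0.0152), and with a replicate block 1 member was higher (SEC61G) and 1 lower (SSR3), with 485 genes higher and 167 lower in all against 41 and 14. Over all genes, DESeq2 called 244 and 77 and the filter of at least 1 count 324 and 113. Other ER genes called higher (0) became 2 with at least 1 count, 1 with CPM above 1, with the legacy method off and with halved counts, 3 with DESeq2, 5 with the replicate block, and 0 to 12 with 1 library left out. Those called lower (1) became 2 with at least 1 count, DESeq2, the replicate block and the length trend removed. With the length trend removed, 65 of 13487 genes were called higher and 47 lower (0.83% together). The members' median ranged from -0.037 to 0.026 with 1 library left out. Signs turned for ATF6 (upper-quartile scaling -0.0064, library size -0.013) and CALR (library size -0.0053). With the length trend removed they turned for CALR (-0.042), MANF (-0.065), DDIT3 (-0.042), EDEM2 (-0.012), SEC61B (-0.11), SEC62 (0.0075), SSR4 (-0.12) and SEC11A (-0.053). With 1 library left out, log2 fold changes crossed 0 for CRELD2 (-0.23 to 0.026), ERN1 (-0.18 to 0.056), SYVN1 (-0.13 to 0.056), HERPUD1 (-0.032 to 0.025), DERL1 (-0.093 to 0.058), SEC61A1 (-0.10 to 0.0068), SEC62 (-0.047 to 0.011), SSR2 (-0.16 to 0.13), SPCS2 (-0.12 to 0.024), ATF6 (-0.025 to 0.080), PPP1R15A (-0.031 to 0.54), DERL3 (-0.24 to 0.17), EDEM2 (-0.030 to 0.17), EDEM3 (-0.048 to 0.13), OS9 (-0.024 to 0.15), XBP1 (-0.087 to 0.019), CALR (-0.032 to 0.10) and ERO1A (-0.10 to 0.024). The cause of these turns was not tested. With 2 libraries a group, the 95% interval stayed within 1.2-fold for 20 of the 43 genes.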
